A study of Mus musculus with 18 samples.

Results

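The apolipoproteins and microsomal triglyceride transfer protein were read in mouse liver through 12 array probes for 10 genes (Apoa1, Apoa2, Apoa4, Apoa5, Apob, Apoc2, Apoc3, Apoe, Apom and Mttp). All non-control probes that the array files assign to these symbols were taken, out of 39429 probes with 31829 gene names. Apoa2 and Apob had 2 probes each and the other genes 1 each. The Apoa1 and Apoe probes were printed in 10 spots per array and the other 10 probes in 1 spot. The rule used the symbols alone, although the set of genes was chosen with earlier results of these data known.

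The livers came from 18 male C57BL/6J mice, 13 weeks old, which had eaten a high-fat diet for 5 weeks from the age of 8 weeks. The linseed oil diet was given to 8 mice, and its fat was 66.7% polyunsaturated, 22.5% monounsaturated and 9.7% saturated, with alpha-linolenic acid making up 49.7%. The palm oil diet was given to 10 mice, and its fat was 8.8% polyunsaturated, 34.8% monounsaturated and 55.6% saturated. Lipid supplied 51.1% of the energy in both diets, carbohydrate 32.1% and protein 16.7%, so both groups were on a high-fat diet and no low-fat group was analysed here. Each liver was hybridised to 1 array. The mice were housed together, and which of them shared a cage is not recorded in the labels.

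Apolipoproteins are the protein coat of the particles that carry lipid in blood, and the liver is a main source of most of them. Apob is the structural protein of very-low-density lipoprotein (VLDL), and Mttp loads lipid onto it while it is made. Apoa1, Apoa2 and Apom are carried on high-density lipoprotein (HDL). Apoc2 activates lipoprotein lipase, the enzyme that removes triglyceride from circulating particles, while Apoc3 inhibits it. Apoa5 promotes that removal, Apoa4 rides on triglyceride-rich particles and HDL, and Apoe is the ligand that receptors use to take up remnants.

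The probes are 60 bases long, and the sequences of 8 of them, read from the deposited array files, are given here because the results turn on which transcript segment each one reads and on which of them reached the limit of the scanner. Positions are those of the files' annotation on mouse build mm9.
Apob A_55_P1957198 (chr12:8012697-8012756, plus strand): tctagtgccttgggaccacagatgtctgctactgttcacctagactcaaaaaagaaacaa
Apob A_52_P441070 (chr12:8023194-8023253, plus strand): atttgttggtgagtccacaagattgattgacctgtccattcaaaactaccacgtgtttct
Mttp A_55_P1970299 (chr3:137753868-137753927, minus strand): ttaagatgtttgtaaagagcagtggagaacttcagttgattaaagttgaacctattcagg
Apoa1 A_51_P408082 (chr9:46037921-46037980, plus strand): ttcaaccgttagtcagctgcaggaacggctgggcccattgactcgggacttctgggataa
Apoa4 A_51_P327491 (chr9:46049661-46050404, plus strand): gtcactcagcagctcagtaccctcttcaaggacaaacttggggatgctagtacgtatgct
Apom A_52_P150236 (chr17:35267047-35267106, minus strand): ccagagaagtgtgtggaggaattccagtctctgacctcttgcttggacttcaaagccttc
Apoe A_51_P171999 (chr7:20281732-20281791, minus strand): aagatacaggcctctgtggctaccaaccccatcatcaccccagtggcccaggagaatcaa
Apoa2 A_55_P1966035 (chr1:173156320-173156379, plus strand): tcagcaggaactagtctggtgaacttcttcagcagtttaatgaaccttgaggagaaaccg

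The Apob probes start 10497 bases apart on the genome, so they read separate stretches of the same transcript. The Apoa4 probe covers 744 genomic bases with 60 bases of sequence, so it crosses a splice junction. The probes of Apoa1, Apoc3, Apoa4 and Apoa5 lie within 42082 bases of each other on chromosome 9. The probes of Apoc2 and Apoe lie within 24765 bases of each other on chromosome 7.

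Levels are log2 of the background-subtracted signal minus the 75th percentile of the same array, so a level of 0 is the brightness of that percentile. The 75th percentile ran between 117 and 204 intensity units over the 18 arrays, and its log2 averaged 7.29 on the linseed arrays and 7.44 on the palm arrays, a difference of -0.15. Correlations between arrays over all kept probes were 0.974 to 0.994. Between 17258 and 22445 probes per array were well above background. All 11 hepatocyte markers examined, Alb among them, were well above background on all 18 arrays. Of 9 enterocyte markers, Alpi, Sis, Lct and Rbp2 were well above background on no array and 3 were on all 18. The summed level of those 3 was 96.8 to 124 times the percentile in linseed livers and 66.0 to 114 in palm livers, and Fabp2 among them averaged a level of 6.35 in linseed livers and 6.18 in palm livers. No gene of the marker lists was called. Of the lists for other cell types, the adipocyte list had the largest median difference, 0.86 over 4 tested genes. Its summed level ran between 3.78 and 39.2 times the percentile in linseed livers and between 1.46 and 13.0 in palm livers, and Lep was above background on no array. Its part in the results below was not tested. The arrays lay on 5 slides, each with both diets, and within-slide differences are given beside the pooled ones. Slides 1 and 5 held 1 linseed mouse and 2 palm mice each, and slides 2, 3 and 4 held 2 of each diet. In whole liver, fewer cells of a type and less RNA per cell cannot be told apart.

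The first question was which members could be measured at all, because several lay at the limit of the detector. Apoa2, read by both of its probes, and Apoe were saturated on 18 of 18 arrays, and Apoc3 on 16 of 18. The saturation value in the file headers was 65502 intensity units, and a spot could be called saturated with a signal below it. On linseed replicate 5, Apoc3 was called at a signal of 57590 units, with 92.2% of its pixels saturated. In the Apoe spots, at least 98.9% of pixels were saturated in linseed livers and at least 98.5% in palm livers. For Apoa2 the probe A_55_P2178553 had 100% of its pixels saturated on every array, and the probe A_55_P1966035 had at least 96.8% in linseed livers and 96.9% in palm livers. For Apoc3, 1 linseed array (replicate 2, with 4.69% of pixels saturated) and 1 palm array (replicate 3, with 50% of pixels saturated) were not called saturated. Their Apoc3 signals were 54391 intensity units in linseed replicate 2 and 56143 in palm replicate 3. For these 3 genes the arrays therefore gave a lower bound of the level, and no difference between the diets is reported for them.

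Scaled levels of the saturated probes followed the brightness of the array. The Apoe level correlated at r = 0.995 with the negative log2 of the array's 75th percentile over 18 arrays, and the Apoc3 level at 0.938. The Apoa2 probes gave 0.982 (A_55_P1966035) and 0.902 (A_55_P2178553). The corresponding values were 0.02 for Apoa4, 0.05 for Apoa5 and 0.17 for Mttp. The other unsaturated probes lay between these, with 0.66 for Apoa1, 0.58 for the Apob probe A_55_P1957198, 0.38 for Apoc2, 0.29 for Apom and 0.25 for the Apob probe A_52_P441070. These are descriptions over arrays that share the percentile on both axes. Over the whole array, 37 probes were saturated on all 18 arrays, and their scaled differences between linseed and palm ran between 0.13 and 0.19 with a median of 0.15. The median over all 20386 probes kept was 0.002, that of the 729 probes with a mean level of 6 to 8 was 0.03, and that of the 131 probes with a mean level over 8 was 0.13. In the authors' deposited table, both Apoa2 probes and Apoe stood within 0.001 of a log2 value of 16 on all 18 arrays, and Apoc3 on 17.

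**Figure D1:**
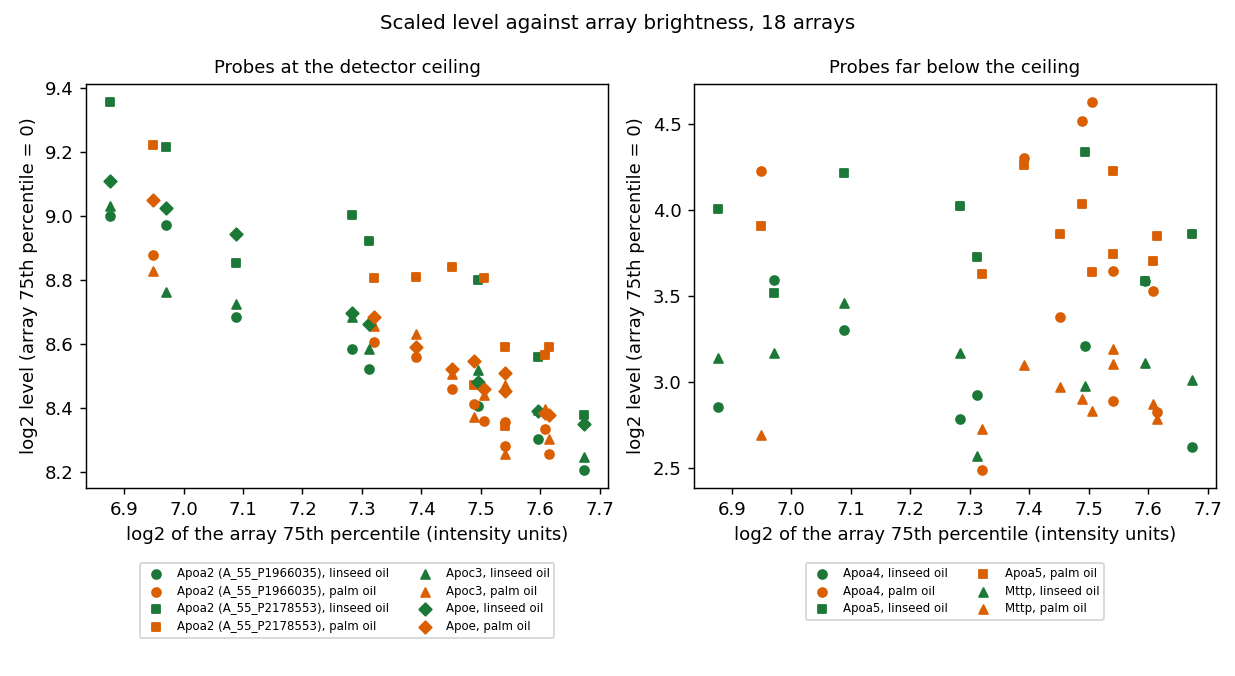
Scaled log2 level (vertical axis) against log2 of each array's 75th percentile in intensity units (horizontal axis) for 4 probes at the detector ceiling and for 3 probes far below it, 1 point per mouse, with linseed oil in green and palm oil in orange. The saturated probes lie lower on brighter arrays, while Apoa4, Apoa5 and Mttp (r between 0.02 and 0.17 with the sign of the axis turned) do not.

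Among the 8 probes below saturation, which stand for Apoa1, Apoa4, Apoa5, Apob (both probes), Apoc2, Apom and Mttp, none was called different between the diets at an adjusted p under 0.05 (limma over all probes). The main comparison leaves out spots that the image software marked as uneven or as outliers. In it, 0 of 7 unsaturated member probes tested were called, against 147 of 19510 probes on the array, or 0.753% (0.589% higher and 0.164% lower in linseed livers). At an unadjusted p under 0.05, 1 of them passed (the Apob probe A_52_P441070), against 10.6% of all probes. With marked spots kept, 0 of 8 were called, against 185 of 20386 probes, or 0.907% (0.721% higher and 0.186% lower in linseed livers), and 1 passed the unadjusted threshold, against 11% of all. The median difference of the unsaturated member probes was 0.02 in the main comparison and 0.10 with marked spots kept, beside -0.0005 and 0.002 over all probes. No member probe passed the threshold under any of the 39 other settings tried, the smallest adjusted p of any being 0.119 for Apob.

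Apob, the structural protein of VLDL, had the largest positive difference. Its probe A_52_P441070 had levels of 4.53 to 5.91 in linseed livers (median 5.45), against 4.28 to 5.28 in palm livers (median 5.01). The levels of 6 of 8 linseed mice lay above those of all 10 palm mice, and the other linseed mice, replicates 6 and 8, lay below the palm median. The difference was 0.41 ± 0.16 (SE; 95% interval 0.06 to 0.75; 8 linseed and 10 palm arrays), a ratio of 1.33, with a limma adjusted p of 0.363. It was not spread evenly over the slides. On slide 2 linseed mice exceeded palm mice by 1.24, and on slides 1 and 3 by 0.50 and 0.45. On slides 4 and 5 the differences were -0.16 and -0.15. With slide 2 left out, the difference was 0.16 (adjusted p 0.751).

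The other Apob probe, A_55_P1957198, carried marked spots on 3 of 8 linseed arrays and 6 of 10 palm arrays, so it could be tested only with marked spots kept. Its levels were 6.85 to 7.68 in linseed livers (median 7.24), against 6.70 to 7.42 in palm livers (median 6.95). The groups overlapped, with 1 linseed mouse above all palm mice and 4 palm mice below all linseed mice. The difference was 0.23 ± 0.12 (SE; 95% interval -0.02 to 0.48; adjusted p 0.515 in limma). It was positive on all 5 slides, between 0.05 and 0.42. Over the 18 mice, with diet means removed, both Apob probes correlated at r = 0.49 (permutation p = 0.0386) with a Spearman rho of 0.40 (permutation p = 0.106). Without the 2 mice farthest from the median of the probe A_52_P441070, r was 0.23. Leaving out its extremes narrows the range of that probe. The lower r therefore cannot decide whether the relation rested on those mice.

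Mttp, the lipid transfer protein that partners Apob, had levels of 2.57 to 3.46 in linseed livers (median 3.12), against 2.69 to 3.19 in palm livers (median 2.88). Linseed mice had both the highest value (replicate 5) and the lowest (replicate 6), and 7 of 8 lay above the palm median. The difference of 0.16 ± 0.10 (SE; 95% interval -0.05 to 0.37) had a limma adjusted p of 0.624. It was positive on each of the 5 slides, between 0.06 and 0.42. Without linseed replicate 5 it was 0.10.

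Apoc2, the activator of lipoprotein lipase, had the tightest spread of the unsaturated members in linseed livers. Its levels there were 7.21 to 7.68 (median 7.52), against 6.91 to 7.71 in palm livers (median 7.32). The palm mice held both the highest and the lowest value, and 7 of 8 linseed mice lay above the palm median. The difference was 0.19 ± 0.10 (SE; 95% interval -0.02 to 0.41; 8 linseed and 9 palm arrays, 1 palm spot being marked), with a limma adjusted p of 0.551. It was positive on all 5 slides, between 0.08 and 0.26.

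Apoa5, which promotes triglyceride removal, had closely overlapping groups. Levels were 3.52 to 4.34 in linseed livers (median 3.93), against 3.63 to 4.26 in palm livers (median 3.85). The difference was 0.02 ± 0.12 (SE), with a 95% interval of -0.23 to 0.27 and a limma adjusted p of 0.967. It was positive on 3 slides and negative on 2.

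Apoa4 had the largest difference in size and the widest spread among the unsaturated members. Levels were 2.62 to 3.59 in linseed livers (median 3.07), against 2.49 to 4.63 in palm livers (median 3.59). In intensity units the signals were 849 to 2319 in linseed livers and 896 to 4486 in palm livers. Palm mice filled both ends of the scale: 5 of 10 lay above every linseed mouse, namely replicates 2, 3, 6, 7 and 9, and 1 lay below every linseed mouse. The SD was 0.37 among linseed mice and 0.76 among palm mice, a ratio of 2.05 of palm over linseed. The difference was -0.53 ± 0.27 (SE; 95% interval -1.10 to 0.04), a ratio of 0.69, with a limma adjusted p of 0.525. It was negative on all 5 slides, between -0.87 and -0.0018. The within-diet SD of 0.62 stood at percentile 94.0 of all kept probes, whose median SD was 0.24. The other unsaturated member probes had within-diet SDs of 0.20 to 0.36, at percentiles of 38.5 to 75.1.

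Of the HDL proteins below saturation, Apoa1 had levels of 7.19 to 8.27 in linseed livers (median 7.68), against 7.32 to 8.01 in palm livers (median 7.66), with marked spots kept. The groups overlapped on both sides, with linseed mice at both ends. The main difference was 0.02 ± 0.13 (SE; 95% interval -0.24 to 0.29; adjusted p 0.969 in limma). Its sign changed with the processing and the model: it was -0.01 after quantile scaling and with slide as a fixed block, and -0.03 in the authors' deposited table.

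Apom, the HDL protein that binds sphingosine-1-phosphate, had a negative difference. Levels with marked spots kept were 5.90 to 6.76 in linseed livers (median 6.29), against 6.23 to 6.78 in palm livers (median 6.55). Of 8 linseed mice, 7 lay below the palm median and 3 below every palm mouse. The highest linseed value, that of replicate 3, still lay close to the top of the palm range. The difference was -0.22 ± 0.11 (SE; 95% interval -0.44 to 0.001; adjusted p 0.457 in limma) with marked spots kept. With them left out, on 6 linseed and 9 palm arrays, it was -0.19 ± 0.13 (adjusted p 0.644). It was negative on all 5 slides, between -0.49 and -0.11. With marked spots kept, slide as a fixed block gave -0.25 ± 0.09 (adjusted p 0.217) and quantile scaling -0.25 ± 0.09 (adjusted p 0.278). Both 95% intervals lay below 0, and neither adjusted p reached the threshold.

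**Figure D2:**
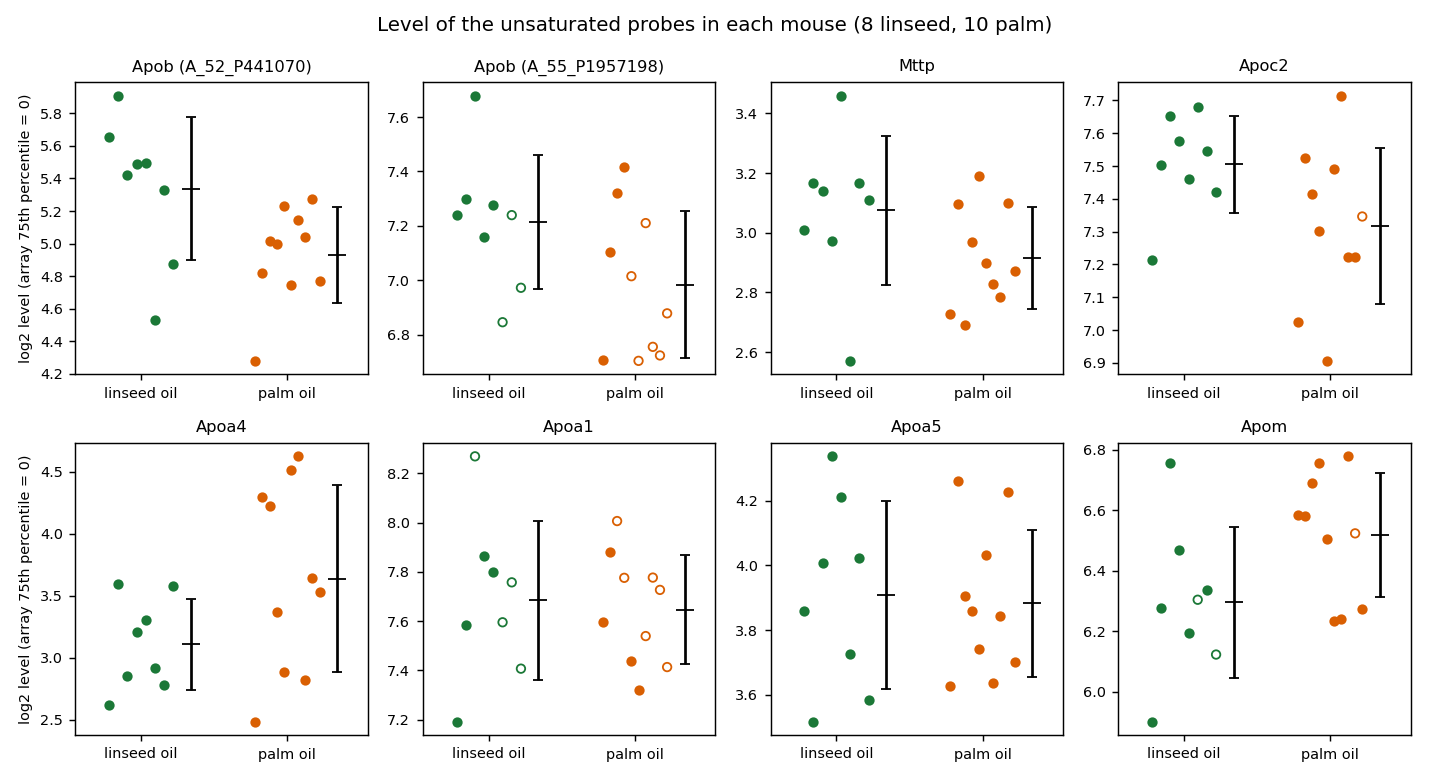
Scaled log2 level of each of the 8 unsaturated probes (vertical axis) in each mouse, with linseed oil on the left in green (8 mice) and palm oil on the right in orange (10 mice), and the mean with SD beside each group. Open circles mark arrays with a marked spot for that probe. The scatter of Apoa4 (SD 0.37 in linseed mice and 0.76 in palm mice) and the 6 linseed mice above all palm mice for the Apob probe A_52_P441070 stand out.

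**Figure D3:**
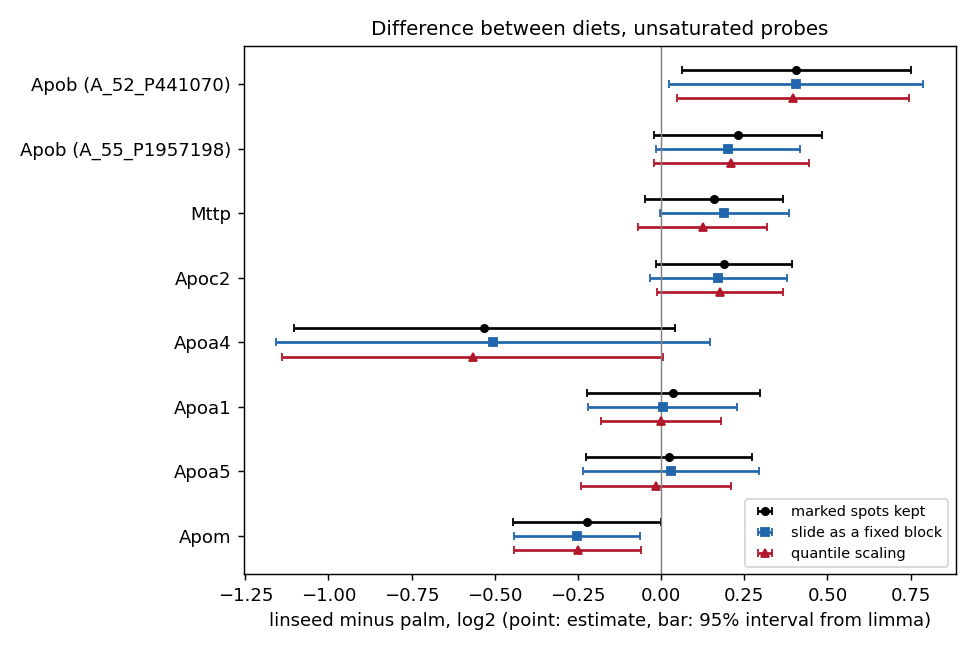
Linseed minus palm difference in log2 (horizontal axis) for the 8 unsaturated probes with marked spots kept, as the limma estimate and its 95% interval, in the basic fit, with slide as a fixed block and after quantile scaling. The intervals of the Apob probe A_52_P441070 lie above 0 in all 3 fits, and those of Apom below 0 in the fits with the slide block and with quantile scaling. None of these differences passed the adjusted threshold.

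Over the 8 unsaturated probes, 5 kept 1 sign on all 5 slides (the Apob probe A_55_P1957198, Mttp, Apoc2, Apoa4 and Apom). On the whole array 13.3% of kept probes did so. On slides 1 and 5 the difference rests on 1 linseed mouse, and slide 1 is assumed from arrays whose headers lack a barcode. The probes are not independent of each other, and this count carries no test.

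**Figure D4:**
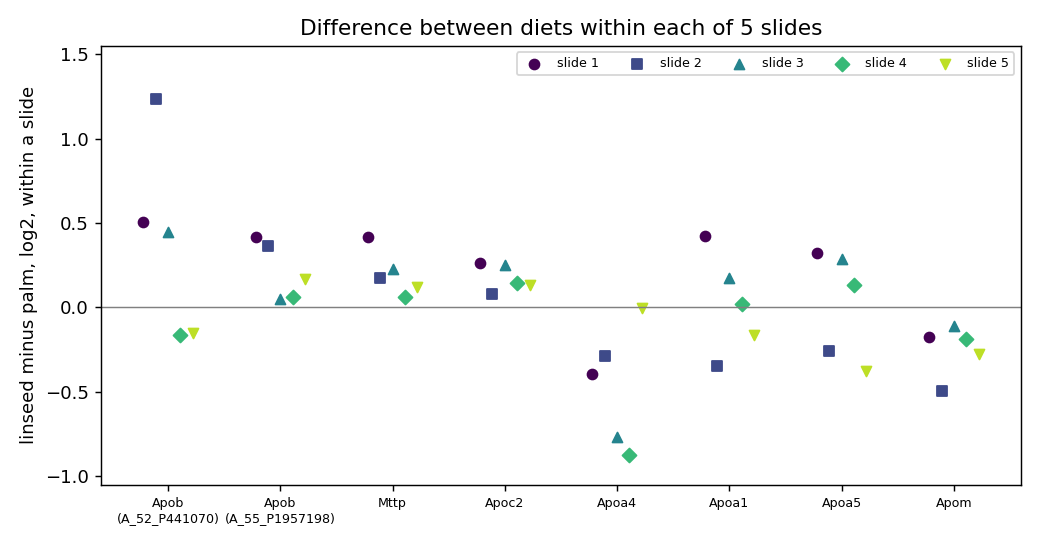
Linseed minus palm difference in log2 within each of the 5 slides (vertical axis) for the 8 unsaturated probes, 1 symbol per slide, marked spots kept. Apoa4 and Apom lie below 0 on every slide, Mttp, Apoc2 and the Apob probe A_55_P1957198 above 0 on every slide, and the Apob probe A_52_P441070 runs between -0.16 and 1.24.

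The next question was which members varied together from mouse to mouse once the diet means were removed. All 45 pairs of the 10 genes were computed, taking the brightest probe of Apob and Apoa2, and p-values from 100000 permutations were adjusted over the 45. Of the 21 pairs without a saturated gene, 2 passed an adjusted p of 0.05. The share of passing pairs among all kept probes was not computed, so this count is not read as particular to these genes. Apoa1 and Apom correlated at r = 0.87 and rho = 0.87 (permutation p = 1e-05, the smallest these permutations can give; adjusted p = 0.00015). Without the 2 mice farthest from the Apoa1 median, r was 0.76. With slide means also removed r was 0.76, and after quantile scaling it was 0.80. Both genes followed array brightness on this scale: with diet means removed, their correlations with the negative log2 of the 75th percentile were 0.67 for Apoa1 and 0.52 for Apom. Within the diets, r was 0.94 over 8 linseed mice (exact permutation p = 0.00169; rho 0.86, exact permutation p = 0.0107) and 0.78 over 10 palm mice (permutation p = 0.00908; rho 0.81, permutation p = 0.00691). Adjusted over the 6 within-diet values computed for 3 pairs, these permutation p-values were 0.00506 in linseed mice and 0.0182 in palm mice. The 3 pairs had been picked from the 45 on these same mice, and the adjustment over 6 does not count that choice. These within-diet p-values are therefore likely too small and give no independent support. Without the 2 farthest mice, r was 0.70 in each diet.

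Apoa4 and Apoc2 formed the other pair, although their probes lie on different chromosomes. Over all 18 mice they correlated at r = 0.73 and rho = 0.69 (permutation p = 0.0006; adjusted p = 0.00386). Over the 8 linseed mice r was 0.04 and rho -0.10 (exact permutation p = 0.925 and 0.84; adjusted p = 0.984 for r). Over the 10 palm mice r was 0.90 and rho 0.92 (permutation p = 0.0004 and 0.00045; adjusted p = 0.0024 for r). Quantile scaling gave 0.01 in linseed mice and 0.86 in palm mice. The difference between the diets in this relation was not tested. Its within-diet p-values carry the limit given above for pairs picked on these same mice. Without the 2 mice farthest from the Apoa4 median, r over all mice was 0.59. With slide means removed r was 0.87, and after quantile scaling 0.71. Their diet differences had opposite signs, -0.53 for Apoa4 and 0.19 for Apoc2. Apoa4 and Apoa1, whose genes share the chromosome 9 cluster, correlated at r = 0.01 (adjusted p = 0.978), and Apoa4 and Apoa5 at 0.14 (adjusted p = 0.731).

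Apob (probe A_55_P1957198) and Mttp correlated at r = 0.29 (permutation adjusted p = 0.486). The other Apob probe, A_52_P441070, was not set against Mttp, so the values given here hold for the brighter probe alone. That brighter probe carried marked spots on 3 of 8 linseed arrays and 6 of 10 palm arrays. With slide means removed, r was 0.68 and rho 0.70 (permutation adjusted p = 0.0143), with 0.68 without the 2 farthest mice. These permutations shuffled the deviations freely over all mice and made no allowance for the slide means taken out. This adjusted p is therefore likely too small. After quantile scaling alone r was 0.18 (adjusted p = 0.881), so this relation passed the threshold in 1 of the 4 settings computed. Within the diets r was 0.57 over 8 linseed mice (exact permutation p = 0.126; adjusted p = 0.188) and 0.01 over 10 palm mice (permutation p = 0.984; adjusted p = 0.984). Of the 24 pairs with a saturated gene, 8 passed in the basic setting and 0 after quantile scaling. The saturated probes followed array brightness, as given above, which such pairs share.

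**Figure D5:**
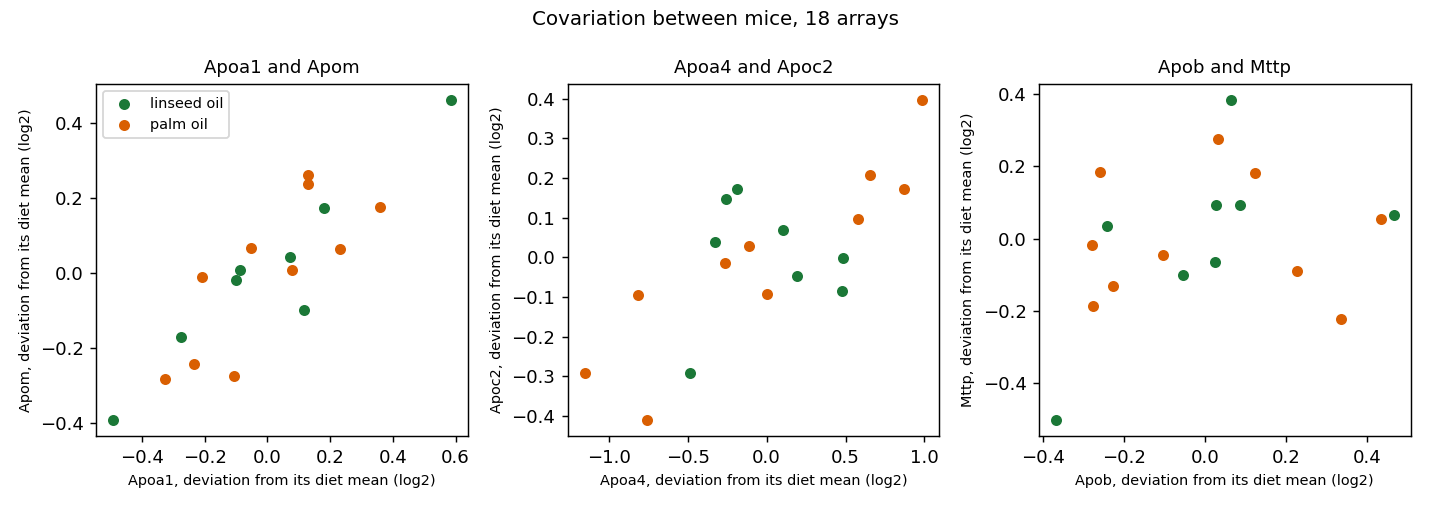
Deviation of each mouse from its diet mean in log2 for 3 pairs of genes (the first gene on the horizontal axis, the second on the vertical axis), 1 point per mouse, with linseed oil in green and palm oil in orange. Apoa1 and Apom lie along a rising line in both diets (r = 0.94 in linseed mice and 0.78 in palm mice), and Apoa4 and Apoc2 show r = 0.04 in linseed mice and 0.90 in palm mice. The Apob probe A_55_P1957198 and Mttp (r = 0.29 over all mice) show a loose cloud.

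For each member, the gene outside the members with the most similar deviations over the 18 arrays was also looked up. For Apoa5 it was Timm10 (r = 0.84), a chaperone of mitochondrial protein import. For the Apob probe A_55_P1957198 it was Sh3d19 (r = 0.92), and for Apoc2 it was Cryz (r = 0.88), the zeta-crystallin quinone reductase. For Apoa1, Apoa4, Apom and Mttp the closest probe had no gene symbol in the tables used here, with r of 0.95, 0.80, 0.95 and 0.90. For Apoa1, Apom, Apoa4 and Apoc2 the r of this closest probe exceeded that of the called member pair. The pairs gave 0.87 for Apoa1 and Apom, and 0.73 for Apoa4 and Apoc2. The highest r of all kept probes would nearly always exceed that of a given pair, so nothing is concluded about the pairs. The saturated members paired with probes that themselves followed array brightness: Apoe with Chchd10 (r = 0.99), Apoc3 with Serpina1a (r = 0.97) and the Apoa2 probe A_55_P2178553 with the Exosc2 probe (r = 0.99). With diet means removed, the correlations of these probes with the negative log2 of the 75th percentile were 0.996 for Chchd10, 0.961 for Serpina1a and 0.907 for Exosc2.

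The other genes of lipoprotein metabolism were read from 5 lists, beside a background of 0.753% of probes called. Of 18 other apolipoproteins, 13 were tested and none was called. The smallest p was that of Apol9a, which averaged 4.83 ± 0.28 in linseed livers and 5.27 ± 0.20 in palm livers (SD), a difference of -0.43 (limma adjusted p 0.16, or 0.0467 once slide entered as a fixed block). Apol9a has a close copy in Apol9b, whose probe gave -0.39, and the arrays may not separate them. Of 27 genes of VLDL assembly and secretion, 25 were tested and 1 was called. Pctp, a phosphatidylcholine transfer protein, was higher by 0.44 in linseed livers (2.26 ± 0.20, against 1.82 ± 0.21 in palm livers, limma adjusted p 0.0408). After quantile scaling its adjusted p was 0.0618.

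Of 15 genes of HDL formation and remodelling, 13 were tested and none was called. Scarb1, the HDL receptor, had the smallest p, with 3.63 ± 0.14 in linseed livers and 3.89 ± 0.26 in palm livers (adjusted p 0.339). Of 17 genes of lipolysis and clearance of triglyceride-rich particles, 14 were tested and 1 was called. Vldlr, the VLDL receptor, was higher by 1.35 in linseed livers, with -1.15 ± 0.30 there and -2.50 ± 0.54 in palm livers (limma adjusted p 0.00232, a ratio of 2.55). Of 26 regulators of apolipoprotein genes, 24 were tested and 1 was called. Rora, a nuclear receptor, was higher by 0.40 in linseed livers (1.68 ± 0.18, against 1.28 ± 0.19 in palm livers, limma adjusted p 0.0477). Its adjusted p was 0.056 once slide entered as a fixed block, and after quantile scaling 0.077. The medians of the 5 lists ran between -0.07 and 0.07, beside -0.0005 over all probes.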

How the data were processed

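Liver RNA of 18 mice was hybridised to 1-colour Agilent arrays, 1 array per mouse. Per the labels' protocols, 1 µg of total RNA was labelled with Cy3. Per the file headers, the authors obtained spot intensity values with Feature Extraction 9.5.3.1. These are background-subtracted within the array and are not scaled across arrays. Limma is named, without a version, in the submitters' processing notes. The authors also deposited log2 values for 18060 probes. The array medians in that table were 7.848 to 7.852, and its rank correlation with the processed signal was 0.991 to 0.998. Its scaling is not stated in the labels, so it served as an alternative.

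Levels were taken as log2 of the processed signal relative to the 75th percentile of non-control probes on the same array. Marked spots numbered 238 to 1703 per array and were left out after scaling. Saturated spots numbered 63 to 111 and were kept. Spots of a probe were averaged. Probes entered the fit with 8 or more arrays well above background and 6 or more values per diet. The fit was a two-sided limma model (version 3.58.1, R 4.3.3, lmFit followed by eBayes) with Benjamini-Hochberg adjustment over all kept probes and a threshold of 0.05. The Apob probe A_55_P1957198 is given with marked spots kept. Groups come from the sample titles. The limma p-values set each diet difference against the spread between mice within a diet and take the mice as independent. Nothing says which mice shared a litter or cage, so that independence could not be checked, nor cage told apart from diet. The number of arrays limits the precision.

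The named genes are all members, up to 3 called genes of each list (otherwise the 1 with the smallest p), and each member's closest gene. Apol9b was named beside Apol9a after its values were seen. Members and lists were chosen with earlier results of these data known. Symbols were updated through a RefSeq table, used for names only. Arrays whose headers lack a barcode were treated as slide 1. On simulated data of 19510 probes with the arrays' spread, the fit called 44% of changes of 0.5 log2 units, 88% of changes of 1 unit and 6 of 19310 unchanged probes. Alternatives were other background corrections, scalings, filters, treatments of marked or saturated spots, slide and replicate blocks, eBayes settings, the authors' table and leaving out each array. Leaving out each slide, the same 16 arrays without the replicate block, quantile scaling of the correlations and correlations within each diet were added after seeing the data.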

Additional observations from a re-analysis of the deposited data

Results flagged for a closer look

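In the Apob probe A_52_P441070, palm replicate 1 had a level of 4.28, below the other 9 palm mice at 4.74 to 5.28. Its gap to the nearest of them, as a share of the group's range, just passed Dixon's 95% limit for 10 samples. The spot was not saturated. Chance flags about 1 in 20 groups, and 16 groups were checked. Without this mouse the difference between linseed and palm was 0.33 (limma adjusted p 0.52).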

How the results depend on the processing

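No member probe was called under any of the 39 alternatives, and Apoa4, Apob, Apoc2, Apom and Mttp kept their direction in each alternative that gave them a value. The median over all member probes, the saturated ones included, was 0.13 and stayed between -0.004 and 0.19. With saturated spots left out it was 0.02, or 0.10 with marked spots kept. Differences near 0 changed sign. That of Apoa1 was -0.012 with quantile scaling, -0.015 with the 75th percentile over unmarked spots, -0.0075 with slide as a fixed block, -0.028 in the authors' table, -0.061 without slide 1 and -0.046 without slide 3. Leaving out single arrays gave Apoa1 differences of -0.0599 to 0.0926, negative without linseed replicates 3 and 4 and palm replicates 6 and 10. That of Apoa5 was -0.017 with quantile scaling, -0.016 with the percentile over unmarked spots and in the authors' table, -0.018 without slide 1 and -0.064 without slide 3. Leaving out single arrays gave Apoa5 differences of -0.0369 to 0.0801, negative without linseed replicates 4 and 5 and palm replicates 1 and 7. The cause was not tested.

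The number of probes called over the array, 147 in the main comparison, was 74 with normexp background correction, 50 with the percentile over unmarked spots and 49 with no filter on dim probes. Slide as a random block gave 253 calls, and slide as a fixed effect 177. Leaving out slides 1, 2, 3, 4 and 5 gave 33, 21, 46, 56 and 62. The replicate block on numbers 1 to 8 gave 20, against 52 for the same 16 arrays without the block. Same-numbered mice correlated between -0.21 and 0.46, and 2 of 8 correlated best with their own number. Those that shared a slide gave 0.10 to 0.46, and numbers 6 and 8, on different slides, gave 0.03 and -0.21. Number and slide are thus mixed in these values, which cannot decide whether the numbers pair the mice. Single arrays left out gave 59 to 184 calls.

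Signal at the detector limit leaves Apoa2, Apoc3 and Apoe without a measured diet difference. Leaving out linseed replicate 5 moved the Mttp difference to 0.10, and leaving out slide 2 moved that of the Apob probe A_52_P441070 to 0.16. Apom could be fitted in 29 alternatives and the Apob probe A_55_P1957198 in 37.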
